A study of Arabidopsis thaliana with 16 samples.

Results

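The genes described here are the 7 named activators and inhibitors of the anaphase-promoting complex (APC/C) of Arabidopsis thaliana: the endocycle activators CCS52A1 and CCS52A2, the mitotic activators CCS52B, CDC20.1 and CDC20.2, and the inhibitors UVI4 and OSD1. They were taken by locus, as 7 of 32833 loci in a table of seedlings and 7 of 32548 loci in a table of leaf and shoot apical meristem (SAM), and all 7 passed the filter on low values in both tables. RNA was sequenced in 16 libraries, 2 in each of 8 groups. The seedlings, 2 weeks old, were tcx5/6 ddm1, tcx5/6, ddm1 or wild type (WT), and the label of the tcx5/6 ddm1 plants joins both names. SAM came from tcx5/6 and WT plants with no age in the labels, and leaf from 1-month-old tcx5/6 and WT plants. All plants were raised on MS plates at 22 °C with 16 h of light and 8 h of dark. TCX5 and TCX6 belong to DREAM, a repressor complex of the cell cycle, in which they are the proteins with CXC domains. DDM1 remodels chromatin and is needed to maintain DNA methylation. The labels give no alleles. They do not say whether replicates were grown separately, and p-values therefore cover the spread between these libraries alone, which may be technical.

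The APC/C is a ubiquitin ligase that marks mitotic cyclins and securin for destruction and so drives a cell out of mitosis. It acts only with an activator bound, and activators of the CDC20 kind serve in mitosis while those of the CDH1 kind, called CCS52 in plants, serve later. In Arabidopsis, CCS52A1 and CCS52A2 promote the switch from division to endoreplication, the repeated copying of DNA without division, whereas CCS52B and the CDC20 genes are expressed around mitosis. UVI4 binds and inhibits the APC/C with CCS52A1 and so delays endoreplication, and its paralog OSD1 inhibits the APC/C and is needed for the meiotic divisions.

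The values are in signal, the authors' read count per gene adjusted to a common library size. Signal is not divided by gene length, so levels of different genes are compared below only per kb of exon. Total signal per library was 31.13 to 38.82 M in seedlings and 45.35 to 59.33 M in SAM and leaf. These totals were adjusted by the authors, so the depth is unknown and no counting interval is given. The targeted genes did not all follow the labels: TCX5 was lower and TCX6 higher in every group labelled tcx5/6 than in its matching group. DDM1 averaged 611.6 ± 60.6 in tcx5/6 ddm1 seedlings and 132 ± 18.7 in ddm1 seedlings, against 678.6 ± 43.4 in WT seedlings (signal, SD, n = 2 each). By limma-trend DDM1 was called higher in tcx5/6 than in WT seedlings (log2 1.55). It was called lower in ddm1 than in WT seedlings (log2 -2.36) and in tcx5/6 ddm1 than in tcx5/6 seedlings (log2 -1.71). DDM1 thus followed the ddm1 label against the matching group without it. Directions given below are those of the libraries labelled tcx5/6, ddm1 or tcx5/6 ddm1. In seedlings, ddm1 and tcx5/6 ddm1 libraries held 208 to 235 distinct values below 6 signal and tcx5/6 and WT libraries 59 to 68, and the clock gene CCA1 read 248.9 to 1016 in ddm1 and tcx5/6 ddm1 libraries and 5215 to 7577 in tcx5/6 and WT libraries. These differences go with the ddm1 label, and their part in the ddm1 comparisons cannot be told apart from that of the mutation.

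The meristem regulator STM followed the SAM label, at 1713 and 1602 in tcx5/6 SAM and 1587 and 1510 in WT SAM, and listed at 0 in all 4 leaf libraries. The stem cell gene CLV3 was listed at 0 in both WT SAM libraries. Summed floral markers were 10918 and 10964 in tcx5/6 SAM and 15120 and 14530 in WT SAM, against 109.3 and 108 in tcx5/6 leaf and 89.48 and 88.51 in WT leaf. Summed photosynthesis markers were 581136 and 594613 in tcx5/6 SAM and 983281 and 997282 in WT SAM, against 518635 and 504531 in tcx5/6 leaf and 446342 and 435750 in WT leaf. The SAM samples thus held floral and green tissue transcripts as well. The photosynthesis markers did not follow the leaf label. By limma-trend 9 of 10 were called higher and 1 lower in WT SAM than in WT leaf (median log2 1.19), beside 43.2% of all genes called higher. In tcx5/6, 6 were higher in SAM and 3 lower (median 0.36), beside 43.1%. The part of the markers in the differences between SAM and leaf was not tested. In such bulk samples, fewer cells of a type and less RNA per cell cannot be told apart.

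The upstream sequences of 3 of the genes are shown, chosen with the differences and matches known. The inhibitors OSD1 and UVI4 had the largest log2 differences in each comparison of tcx5/6 with its matching group. The endocycle activator CCS52A1, whose window has no match, stands beside them. Each is the stretch of 250 bases before the annotated gene start, read 5′ to 3′ on the gene's strand from the RefSeq TAIR10.1 genome: chr3:21426035-21426284 (+) for OSD1, chr2:17603706-17603955 (-) for UVI4 and chr4:12012158-12012407 (+) for CCS52A1. Capitals mark matches to the core of the mitosis-specific activator (MSA) element, AACGG, which MYB3R proteins bind, and to the cell cycle homology region (CHR), TTTGAA or TTCGAA, which the human TCX relative LIN54 binds. Both strands were searched, so a match to the other strand appears as its reverse complement.
OSD1: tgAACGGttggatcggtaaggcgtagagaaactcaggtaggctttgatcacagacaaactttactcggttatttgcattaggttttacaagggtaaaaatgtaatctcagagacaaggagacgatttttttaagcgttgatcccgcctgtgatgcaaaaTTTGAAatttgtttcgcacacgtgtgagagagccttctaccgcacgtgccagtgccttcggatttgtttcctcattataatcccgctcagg
UVI4: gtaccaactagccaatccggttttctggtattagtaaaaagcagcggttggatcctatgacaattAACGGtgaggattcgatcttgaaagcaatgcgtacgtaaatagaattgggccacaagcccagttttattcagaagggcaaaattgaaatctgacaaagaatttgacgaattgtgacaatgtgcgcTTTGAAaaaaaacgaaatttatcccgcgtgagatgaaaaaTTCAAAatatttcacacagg
CCS52A1: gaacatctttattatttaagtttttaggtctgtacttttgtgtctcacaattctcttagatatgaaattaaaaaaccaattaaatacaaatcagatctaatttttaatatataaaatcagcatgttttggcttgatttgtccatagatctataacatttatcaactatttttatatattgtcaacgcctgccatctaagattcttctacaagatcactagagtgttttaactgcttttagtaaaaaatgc
UVI4 had CHR matches 60 and 20 bases before its start and an MSA core 185 bases before it. OSD1 had a CHR match at 91 bases and an MSA core at 248 bases. Among the 7 genes these inhibitors were the pair with both motifs, which 8.83% of 27443 protein-coding windows hold. A CHR match was present in 43.4% of windows and an MSA core in 20.6%. CCS52A2 had 1 CHR match at 235 bases. No match lay in the windows of CCS52A1, CCS52B, CDC20.1 and CDC20.2, and none of the 7 windows held an E2F site (written as TTCCCGC, read as TTGGCGC, spelled as TTGCCGC, or given as TTCGCGC, and found in 2.9% of windows). No motif match overlapped another. The CCS52B and CDC20.1 windows lie partly within other annotated genes, and a match is a description of letters and not a binding site. CCS52B, CDC20.1 and CDC20.2, with no match, were also higher in tcx5/6 than in WT leaf (log2 2.04, 1.66 and 1.97). CCS52A2, with 1 match, did not pass the test there. The 3 windows shown therefore do not stand for all 7 genes.

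CCS52A1 (AT4G22910) lies on chromosome 4 at 12012408 to 12016012 in TAIR10.1 and CCS52A2 (AT4G11920) on the same chromosome at 7160243 to 7163427. CCS52B (AT5G13840) lies on chromosome 5 at 4468508 to 4471466. UVI4 (AT2G42260) is on chromosome 2 at 17601872 to 17603705 and OSD1 (AT3G57860) on chromosome 3 at 21426285 to 21428340. CDC20.1 (AT4G33270, 16044169 to 16046937) and CDC20.2 (AT4G33260, 16041006 to 16043549) are neighbours on the same strand of chromosome 4, 619 bases apart. Their coding sequences were 97.5% identical, and 31.4% of the 50-base stretches of the CDC20.1 transcript occur in that of CDC20.2 (34% the other way). With the handling of shared reads not stated, values of the CDC20 pair may not be specific to each gene. CCS52A1 and CCS52A2 were 82% identical and UVI4 and OSD1 76.7%, and neither pair shared a 50-base stretch.

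The widest contrast was between SAM and leaf, where the mitotic activators were 238-fold to 507-fold higher in WT SAM and CCS52A1 did not pass the test. CCS52B read 2450 and 2411 in WT SAM, against 15.8 and 4.586 in WT leaf (log2 7.97 ± 0.44 SE, adjusted p = 2e-06). CDC20.1 read 4732 and 4724 in WT SAM, against 16.99 and 13.19 in WT leaf (log2 8.21, adjusted p = 8.7e-09). CDC20.2 read 2262 and 2097 in WT SAM, against 6.33 and 2.271 in WT leaf (log2 8.80, adjusted p = 3e-07). Both WT SAM libraries were far above both WT leaf libraries for these genes, and the leaf values are low. Without WT leaf replicate 1 or 2 the log2 difference was 8.77 or 7.18 for CCS52B and 9.38 or 8.22 for CDC20.2. Of the inhibitors, OSD1 read 604.4 and 526.3 in WT SAM, against 8.425 and 2.306 in WT leaf (log2 6.66, adjusted p = 4.8e-06), a difference of 7.42 or 5.91 without WT leaf replicate 1 or 2. UVI4 read 382.1 and 380.6 in WT SAM, against 16.97 and 12.12 in WT leaf (log2 4.64, adjusted p = 2e-06). CCS52A1, in contrast, overlapped between the tissues at 652.8 and 565.6 in WT SAM, against 624.1 and 598.7 in WT leaf (log2 -0.01 ± 0.11 SE, adjusted p = 0.95). CCS52A2 was slightly higher, at 633.3 and 622.2 in WT SAM, against 477.2 and 476.2 in WT leaf (log2 0.40, adjusted p = 0.029), a call lost without any 1 of the 4 libraries (adjusted p = 0.086 and 0.088 without WT leaf replicate 1 or 2, 0.11 and 0.092 without WT SAM replicate 1 or 2). All changes are limma-trend estimates on log2(signal + 1), with p-values adjusted over all genes by the Benjamini-Hochberg method. Thus 6 of the 7 genes were called higher in WT SAM, beside 43.2% of all genes tested (78.8% in either direction) and a median log2 of 0.21 over all genes. For the same 6 both SAM libraries were above both leaf libraries, as for 48.6% of all genes.

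**Figure D1:**
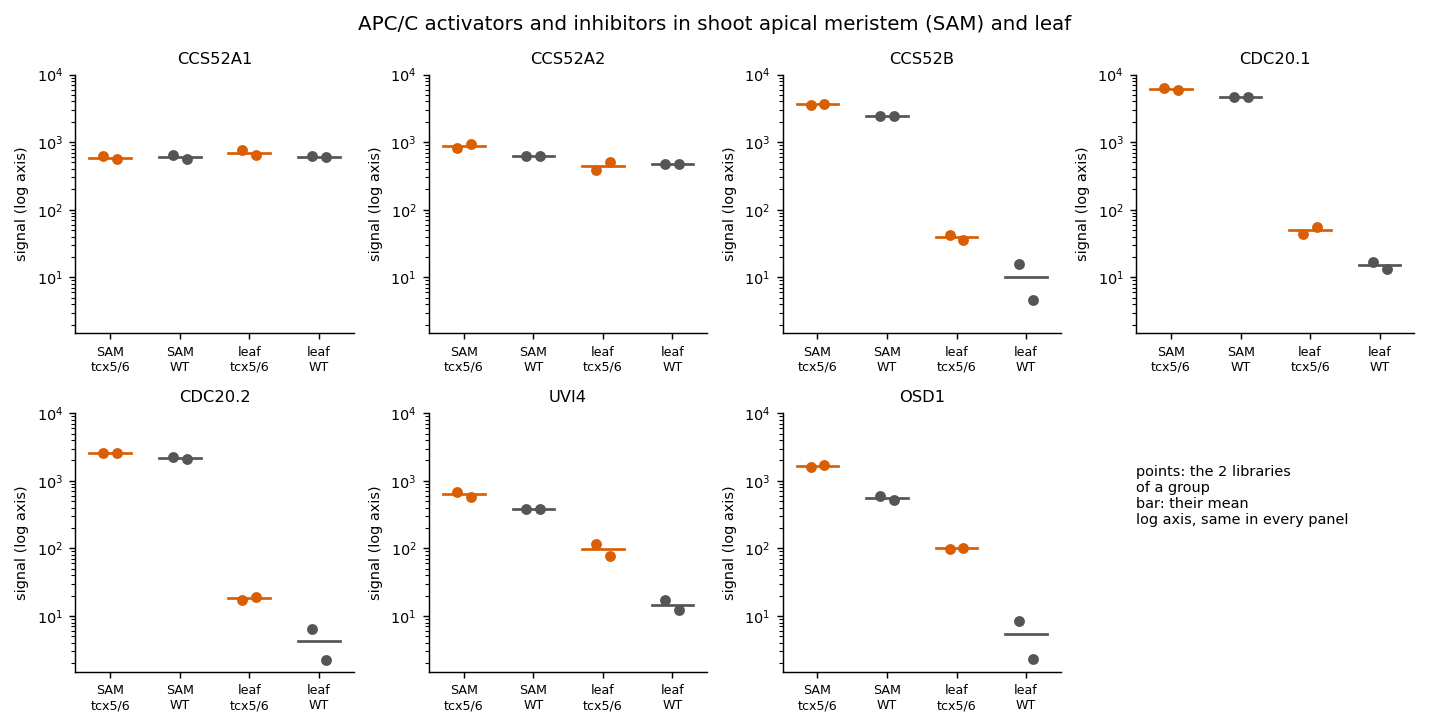
Signal of each gene in the 2 libraries of every SAM and leaf group (points, log axis shared by all panels) with the group mean (bar). CCS52A1 and CCS52A2 stay between 388.4 and 934 in all 8 libraries, while the 3 mitotic activators and the 2 inhibitors reach at most 117.6 in leaf and at least 380.6 in SAM.

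Per kb of exon, the order of levels turned over between the tissues. In WT SAM it ran CDC20.1 (2255 signal per kb), CCS52B (1261), CDC20.2 (1123), OSD1 (405), CCS52A2 (318), CCS52A1 (285) and UVI4 (251), and no neighbours in this order overlapped. In WT leaf CCS52A1 (286) and CCS52A2 (242) came first and the other 5 genes lay at 2.22 to 9.57 per kb. Neighbours among those 5 overlapped, although UVI4 and CDC20.1 both lay above OSD1 and CDC20.2. In tcx5/6 leaf the CCS52A genes again came first, at 329 and 227 per kb. OSD1 (72) and UVI4 (64.2) followed, with overlapping ranges, and then CDC20.1 (23.7), CCS52B, which overlapped it, and CDC20.2 (9.39). In tcx5/6 SAM the order was that of WT SAM for the first 4, with OSD1 at 1187 per kb.

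In leaf, the mitotic activators and both inhibitors were higher in libraries labelled tcx5/6 than in WT, and the endocycle activators did not pass the test. The largest difference was that of OSD1, at 98.47 and 102.4 in tcx5/6 leaf, against 8.425 and 2.306 in WT leaf (log2 4.18 ± 0.43 SE, adjusted p = 0.00036). UVI4 read 117.6 and 77.63 in tcx5/6 leaf, against 16.97 and 12.12 in WT leaf (log2 2.65 ± 0.26 SE, adjusted p = 0.00028). In both cases the mutant libraries were several times the WT ones. The mitotic activator CCS52B read 41.99 and 35.79 in tcx5/6 leaf, against 15.8 and 4.586 in WT leaf (log2 2.04 ± 0.44 SE, adjusted p = 0.009). CDC20.1 read 44.12 and 55.43 in tcx5/6 leaf, against 16.99 and 13.19 in WT leaf (log2 1.66 ± 0.15 SE, adjusted p = 0.00022). CDC20.2 read 17.51 and 18.91 in tcx5/6 leaf, against 6.33 and 2.271 in WT leaf (log2 1.97 ± 0.35 SE, adjusted p = 0.004). For these 5 genes and CCS52A1, which makes 6 of 7, both mutant libraries were above both WT libraries, as for 34.3% of all genes. CCS52A1 read 753.3 and 650.1 in tcx5/6 leaf, against 624.1 and 598.7 in WT leaf (log2 0.19 ± 0.11 SE, adjusted p = 0.21). CCS52A2 overlapped, at 388.4 and 505.4 in tcx5/6 leaf, against 477.2 and 476.2 in WT leaf (log2 -0.11 ± 0.14 SE, adjusted p = 0.6). So 5 of 7 genes rose, beside 21.3% of all genes that were higher (42.6% called in either direction).

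The mitotic activators in tcx5/6 leaf still stood far below SAM, at 17.51 to 55.43 signal, and the WT leaf libraries disagreed for the lowest values. Without WT leaf replicate 1 the change of OSD1 was 4.94, of CCS52B 2.83 and of CDC20.2 2.55. Without WT leaf replicate 2 they were 3.43, 1.24 and 1.39, and all 5 calls held with any 1 library left out. The defining meristem genes STM, WUS and CLV3 were below 1 in all 4 leaf libraries, and the 12 meristem markers summed to 1900 and 2173 in tcx5/6 leaf and 3253 and 3549 in WT leaf, with 0 higher and 2 lower in tcx5/6. The boundary genes CUC1, CUC2 and CUC3 were listed at 0 in WT leaf and reached 2.366, 4.347 and 2.18 in 1 tcx5/6 leaf library each (not called), and ANT, at 0 in tcx5/6 leaf, was called lower. Floral markers had 2 of 6 genes higher in tcx5/6 leaf (median log2 0.45) and photosynthesis markers 6 of 10 (median 0.33), with 0 lower in either list. The part of these lists in the leaf differences was not tested.

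In SAM, the same comparison gave smaller log2 differences for the mitotic activators and inhibitors and a larger one for CCS52A2. In signal, the gaps of the mitotic activators and inhibitors were wider in SAM, where their levels were far higher. By limma-trend, the dependence on tissue was not called for CCS52B (interaction adjusted p = 0.12) or CCS52A2 (0.06). OSD1 again had the largest log2 difference, at 1606 and 1706 in tcx5/6 SAM, against 604.4 and 526.3 in WT SAM (log2 1.55 ± 0.43 SE, adjusted p = 0.034). CCS52A2 was higher too, at 809.6 and 934 in tcx5/6 SAM, against 633.3 and 622.2 in WT SAM (log2 0.47 ± 0.14 SE, adjusted p = 0.038). These 2 of 7 genes were called, beside 15.6% of all genes called higher and 30.1% in either direction. Neither call outlived leaving out a library: without WT SAM replicate 1 or 2 and tcx5/6 SAM replicate 1 or 2, adjusted p was 0.13, 0.17, 0.14 and 0.16 for OSD1 and 0.14, 0.16, 0.07 and 0.2 for CCS52A2. CCS52B read 3579 and 3642 in tcx5/6 SAM, against 2450 and 2411 in WT SAM (log2 0.57 ± 0.44 SE, adjusted p = 0.4). CDC20.1 read 6220 and 6000 in tcx5/6 SAM, against 4732 and 4724 in WT SAM (log2 0.37, adjusted p = 0.12). UVI4 read 690.6 and 583.2 in tcx5/6 SAM, against 382.1 and 380.6 in WT SAM (log2 0.73, adjusted p = 0.075). CDC20.2 read 2593 and 2606 in tcx5/6 SAM, against 2262 and 2097 in WT SAM (log2 0.26, adjusted p = 0.65). OSD1 and these 4 genes share their standard errors with the leaf libraries of the same fit, where WT values are sparse. Leaf replicates differed for OSD1 in WT (8.425 and 2.306) and for UVI4 in tcx5/6 (117.6 and 77.63), among others. A fit on the 4 SAM libraries alone called all 4, with adjusted p = 3.1e-06 for CCS52B, 2e-05 for CDC20.1, 0.0005 for UVI4 and 0.002 for CDC20.2, so that 6 of 7 genes were called beside 42.2% of all genes. CCS52A1 overlapped, at 618.6 and 560.7 in tcx5/6 SAM, against 652.8 and 565.6 in WT SAM (log2 -0.05, adjusted p = 0.83). For the other 6 genes both tcx5/6 libraries were above both WT libraries, as for 34.2% of all genes.

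Photosynthesis markers were lower in tcx5/6 SAM than in WT SAM, with 10 of 10 genes called beside 14.5% of all genes called lower, and their part in the SAM differences was not tested. The meristem markers summed to 11994 and 11549 in tcx5/6 SAM and 11446 and 11439 in WT SAM, with 1 of 12 higher and 1 lower.

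Whether the tcx5/6 difference itself depended on the tissue was tested as an interaction, the SAM difference minus the leaf difference. It was negative and called for OSD1 (log2 -2.63 ± 0.61 SE, adjusted p = 0.018), UVI4 (log2 -1.92 ± 0.37 SE, adjusted p = 0.009), CDC20.2 (log2 -1.72 ± 0.49 SE, adjusted p = 0.037) and CDC20.1 (log2 -1.29 ± 0.22 SE, adjusted p = 0.006). The rise in leaf was therefore larger than that in SAM on the log scale for these 4 of 7 genes, beside 15.9% of all genes with a called negative interaction and 30.7% in either direction. For CCS52B the interaction was -1.47 ± 0.63 SE (adjusted p = 0.12), and it was called without WT leaf replicate 1 (-2.26, adjusted p = 0.001) and without WT leaf replicate 2 (-0.67, adjusted p = 0.04). The call of CDC20.2 was lost without any 1 SAM library (adjusted p = 0.1 to 0.12) or either tcx5/6 leaf library (0.061 and 0.064) and with a pseudocount of 0.1 (-1.97, adjusted p = 0.056), and that of OSD1 without any 1 SAM library (0.063 to 0.076). CDC20.2 moved to -2.30 and -1.13 without WT leaf replicate 1 or 2, and OSD1 to -3.39 and -1.88. For the endocycle activators the interaction was -0.24 ± 0.16 SE for CCS52A1 (adjusted p = 0.29) and 0.57 ± 0.19 SE for CCS52A2 (adjusted p = 0.06). That of CCS52A2 was called without tcx5/6 leaf replicate 2 (0.76, adjusted p = 0.008).

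Between tcx5/6 SAM and tcx5/6 leaf the same 6 genes were called higher in SAM as in WT, beside 43.1% of all genes (78.2% in either direction). The log2 difference was 6.50 for CCS52B, 6.92 for CDC20.1, 7.08 for CDC20.2, 4.03 for OSD1, 2.72 for UVI4 and 0.97 for CCS52A2 (adjusted p at most 0.00035). CCS52A1 had a difference of -0.25 (adjusted p = 0.077), which was called under median-of-ratios rescaling (-0.33, adjusted p = 0.032) and without tcx5/6 leaf replicate 2 (-0.35, adjusted p = 0.033).

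In seedlings, OSD1 differed most between tcx5/6 and WT. It read 567.6 and 640.7 in tcx5/6 seedlings, against 241.1 and 227.2 in WT seedlings (log2 1.36 ± 0.18 SE, adjusted p = 0.002), and the call held without any 1 library. It was the 1 of 7 genes called, beside 7.26% of all genes called higher and 11.6% in either direction. UVI4 read 243.2 and 223.4 in tcx5/6 seedlings, against 155.9 and 168.2 in WT seedlings (log2 0.52 ± 0.20 SE, adjusted p = 0.14). CCS52B read 726.9 and 731.9 in tcx5/6 seedlings, against 593.8 and 616.8 in WT seedlings (log2 0.27, adjusted p = 0.21). CDC20.1 read 1711 and 1703 in tcx5/6 seedlings, against 1493 and 1450 in WT seedlings (log2 0.21, adjusted p = 0.16). A fit on the 4 libraries of the pair called these 3 (adjusted p = 0.018, 0.027 and 0.022), giving 4 of 7 beside 27.6% of all genes. CDC20.2 read 672.1 and 675.5 in tcx5/6 seedlings, against 641.3 and 576.2 in WT seedlings (log2 0.15, adjusted p = 0.5). Of the endocycle activators, CCS52A1 read 421.3 and 404.5 in tcx5/6 seedlings, against 402.7 and 391 in WT seedlings (log2 0.06 ± 0.09 SE, adjusted p = 0.78). CCS52A2 read 252.8 and 234 in tcx5/6 seedlings, against 199.3 and 215 in WT seedlings (log2 0.23 ± 0.19 SE, adjusted p = 0.52). For all 7 genes both tcx5/6 libraries were above both WT libraries, as for 31.9% of all genes. Limma-trend called 0 of 11 meristem and 0 of 10 photosynthesis markers, with 0 and 5 at an unadjusted p under 0.05, the 5 lower. Floral markers, with 1 of 6 higher, summed to 523.6 and 452.5 in tcx5/6 seedlings and 218.9 and 194.2 in WT seedlings.

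**Figure D2:**
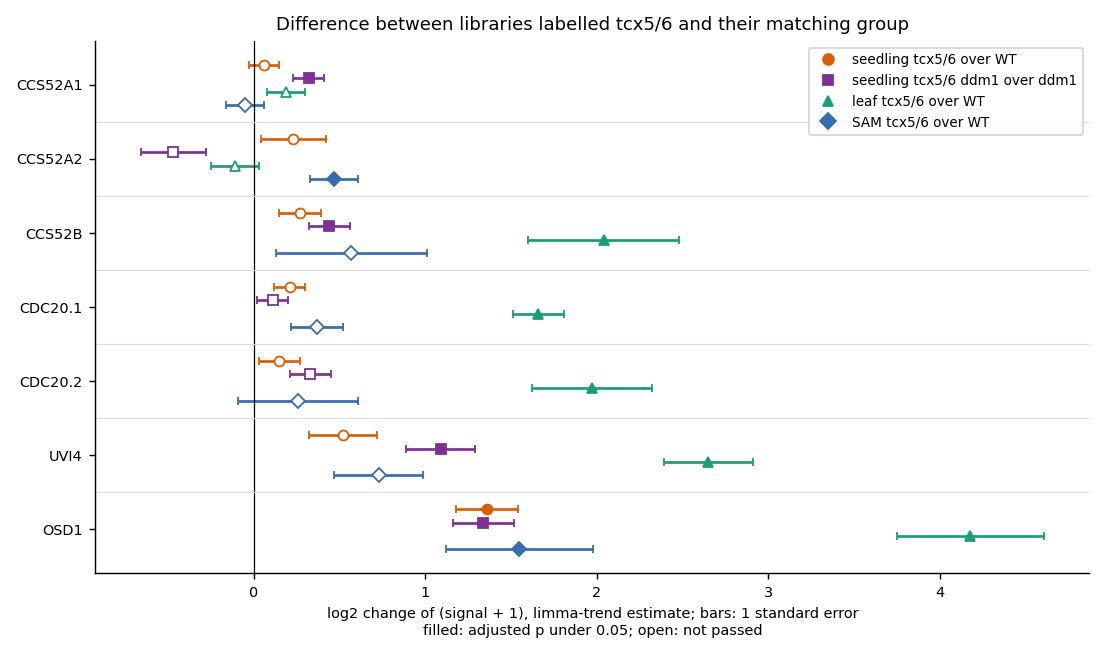
Difference in log2(signal + 1) between each group labelled tcx5/6 and its matching group, with 1 standard error, filled where adjusted p was under 0.05. OSD1 is filled in all 4 comparisons, and the leaf differences of the mitotic activators and inhibitors, 1.66 to 4.18, lie right of all others of the same gene.

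In ddm1 seedlings the mitotic activators and UVI4 were lower than in WT. CCS52B read 348.8 and 367.1 in ddm1 seedlings, against 593.8 and 616.8 in WT seedlings (log2 -0.76 ± 0.12 SE, adjusted p = 0.001). CDC20.1 read 796.9 and 832.6 in ddm1 seedlings, against 1493 and 1450 in WT seedlings (log2 -0.85 ± 0.09 SE, adjusted p = 7.6e-05). CDC20.2 read 298 and 311.6 in ddm1 seedlings, against 641.3 and 576.2 in WT seedlings (log2 -0.99 ± 0.12 SE, adjusted p = 0.00019). All 3 stood at 0.501 to 0.591 of the WT mean. UVI4 read 90.7 and 80.58 in ddm1 seedlings, against 155.9 and 168.2 in WT seedlings (log2 -0.91 ± 0.20 SE, adjusted p = 0.005). These 4 of 7 genes were called lower, beside 23.3% of all genes (49.6% in either direction), and the calls held without any 1 library. Both ddm1 libraries were below both WT libraries for these 4, as for 38.6% of all genes. OSD1, the paralog of UVI4, overlapped at 179.3 and 261.1 in ddm1 seedlings, against 241.1 and 227.2 in WT seedlings (log2 -0.11 ± 0.18 SE, adjusted p = 0.62). CCS52A1 was at 459.9 and 476.5 in ddm1 seedlings, against 402.7 and 391 in WT seedlings (log2 0.24 ± 0.09 SE, adjusted p = 0.065). CCS52A2 overlapped, at 250.7 and 175 in ddm1 seedlings, against 199.3 and 215 in WT seedlings (log2 0.02 ± 0.19 SE, adjusted p = 0.96). Meristem markers summed to 4319 and 4316 in ddm1 seedlings and 4085 and 4004 in WT seedlings. Of the 11 tested, 3 were lower and 1 higher, at a median log2 of -1.24. Floral markers summed to 547.3 and 501.1 in ddm1 seedlings and 218.9 and 194.2 in WT seedlings, with 3 of 6 higher and 1 lower, and of 10 photosynthesis markers 2 were higher and 4 lower. The part of these markers in the differences was not tested.

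The tcx5/6 ddm1 seedlings held CCS52A1 at its highest seedling level. It read 584.3 and 586.3 in tcx5/6 ddm1 seedlings, against 402.7 and 391 in WT seedlings (log2 0.56 ± 0.09 SE, adjusted p = 0.001). OSD1 was higher as well, at 560.8 and 534.8 in tcx5/6 ddm1 seedlings, against 241.1 and 227.2 in WT seedlings (log2 1.22 ± 0.18 SE, adjusted p = 0.00046). The CDC20 genes were lower: CDC20.1 read 949.1 and 817.3 in tcx5/6 ddm1 seedlings, against 1493 and 1450 in WT seedlings (log2 -0.74, adjusted p = 0.00013). CDC20.2 read 418 and 351.2 in tcx5/6 ddm1 seedlings, against 641.3 and 576.2 in WT seedlings (log2 -0.66, adjusted p = 0.001). Thus 2 of 7 genes were called higher and 2 lower, beside 29.5% of all genes higher and 26.4% lower (55.8% in either direction). CCS52B read 545.8 and 431.2 in tcx5/6 ddm1 seedlings, against 593.8 and 616.8 in WT seedlings (log2 -0.32, adjusted p = 0.053). CCS52B was called without tcx5/6 ddm1 replicate 1 (-0.49, adjusted p = 0.006), under median-of-ratios rescaling (adjusted p = 0.046) and under a filter at 20 signal (0.048). UVI4 overlapped, at 157.5 and 212.3 in tcx5/6 ddm1 seedlings, against 155.9 and 168.2 in WT seedlings (log2 0.17, adjusted p = 0.49). CCS52A2 was at 151.9 and 150.2 in tcx5/6 ddm1 seedlings, against 199.3 and 215 in WT seedlings (log2 -0.45, adjusted p = 0.076). The 12 meristem markers summed to 2348 and 2262 in tcx5/6 ddm1 seedlings and 4085 and 4004 in WT seedlings, with 5 of 11 tested lower. All 10 photosynthesis markers were lower too. Floral markers summed to 1038 and 944.5 in tcx5/6 ddm1 seedlings and 218.9 and 194.2 in WT seedlings, with 2 of 6 higher and 1 lower. The part of these 3 lists in the differences was not tested.

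**Figure D3:**
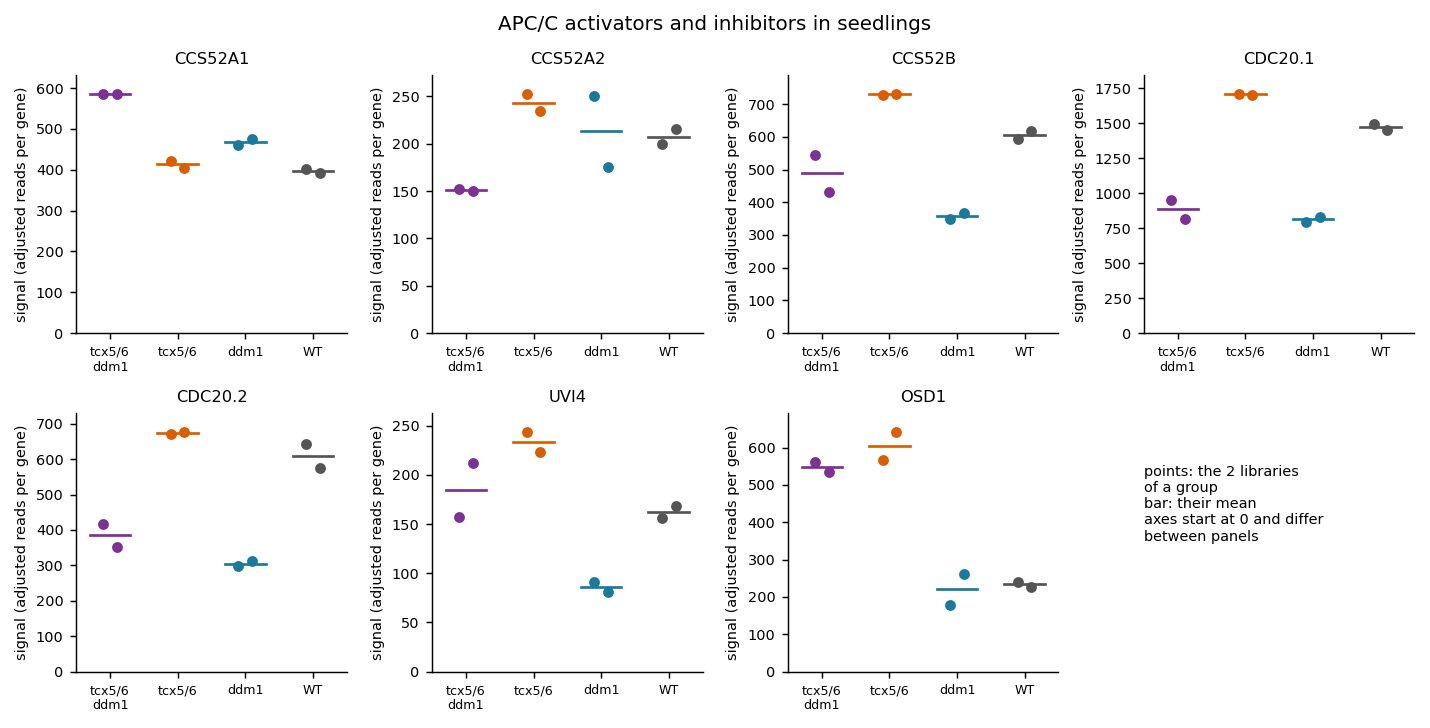
Signal of each gene in the 2 seedling libraries of every genotype (points, linear axes from 0 that differ between panels) with the group mean (bar). OSD1 is at 534.8 to 640.7 in both genotypes with tcx5/6 in their label and at 179.3 to 261.1 in ddm1 and WT, and the mitotic activators have their lowest means in ddm1, where the CDC20.1 points overlap those of tcx5/6 ddm1.

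Against ddm1, the tcx5/6 ddm1 seedlings had higher OSD1 (log2 1.34 ± 0.18 SE, adjusted p = 0.00065), UVI4 (log2 1.09 ± 0.20 SE, adjusted p = 0.003), CCS52B (log2 0.44 ± 0.12 SE, adjusted p = 0.022) and CCS52A1 (log2 0.32 ± 0.09 SE, adjusted p = 0.026). These 4 of 7 stood beside 17.7% of all genes called higher and 39.3% in either direction. The call of CCS52A1 was lost without ddm1 replicate 1 (adjusted p = 0.075) or 2 (0.051) and without tcx5/6 ddm1 replicate 1 (0.057) or 2 (0.058). That of CCS52B was lost without ddm1 replicate 1 (0.079) or 2 (0.052) and without tcx5/6 ddm1 replicate 1 (0.081), where its change was 0.27. The fit on the pair alone called neither (0.1 and 0.099), leaving 2 of 7 beside 27.2% of all genes. CDC20.2 had a change of 0.33 (adjusted p = 0.054), which was called without tcx5/6 ddm1 replicate 2 (0.45, adjusted p = 0.021) and under median-of-ratios rescaling (adjusted p = 0.044). CDC20.1 had a change of 0.11 (adjusted p = 0.33). CCS52A2 had a change of -0.47 (adjusted p = 0.086), called without ddm1 replicate 2 (-0.73, adjusted p = 0.017). Photosynthesis markers were lower in tcx5/6 ddm1 than in ddm1 seedlings in 9 of 10 cases (median log2 -1.24), beside 21.6% of all genes called lower. The meristem markers summed to 2348 and 2262 in tcx5/6 ddm1 seedlings and 4319 and 4316 in ddm1 seedlings, with 3 of 11 tested lower and 1 higher (median 0.07), and 2 of 6 floral markers were higher. The part of these lists in these differences was not tested.

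Against tcx5/6, the tcx5/6 ddm1 seedlings were lower in all 3 mitotic activators: CDC20.1 by log2 -0.95, CDC20.2 by -0.81 and CCS52B by -0.59 (adjusted p = 4.1e-05, 0.00056 and 0.004). CCS52A1 was higher (log2 0.50, adjusted p = 0.002) and CCS52A2 lower (log2 -0.68, adjusted p = 0.017). So 1 of 7 genes was higher and 4 were lower, beside 25.7% of all genes higher and 26% lower (51.7% in either direction). The call of CCS52A2 was lost without tcx5/6 replicate 1 (0.099) or 2 (0.06) and without tcx5/6 ddm1 replicate 2 (0.054). UVI4 and OSD1 had changes of -0.35 and -0.14 (adjusted p = 0.18 and 0.54). Meristem markers were lower in tcx5/6 ddm1 than in tcx5/6 seedlings in 6 of 11 tested cases (median -1.58), with sums of 2348 and 2262 in tcx5/6 ddm1 and 4018 and 4125 in tcx5/6. Photosynthesis markers were lower in 7 of 10 cases (median -0.93), and 3 of 6 floral markers were higher and 1 lower. The part of these lists was not tested. The comparisons among seedlings share libraries, and so do those of SAM with leaf.

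The interaction between tcx5/6 and ddm1, the difference of tcx5/6 ddm1 from ddm1 minus that of tcx5/6 from WT, was called for 0 of 7 genes by limma-trend, beside 14.5% of all genes. CCS52A2 alone had an unadjusted p under 0.05 (log2 -0.70 ± 0.27 SE, adjusted p = 0.12), and it was called without ddm1 replicate 2 (-0.96, adjusted p = 0.036). For OSD1 the interaction was -0.03 ± 0.25 SE and for UVI4 0.57 ± 0.28 SE (adjusted p = 0.96 and 0.22). No other tool was run for this test.

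A stricter rule, which also asks for an absolute log2 change of at least 1, gave 1 of 7 genes in tcx5/6 against WT seedlings (3.77% of all genes), 0 in ddm1 against WT (21.5%), 1 in tcx5/6 ddm1 against WT (26.6%), 2 in tcx5/6 ddm1 against ddm1 (14%), 0 in tcx5/6 ddm1 against tcx5/6 (22.5%) and 0 in the seedling interaction (6.63%). It gave 5 in tcx5/6 against WT leaf (10.8%), 1 in tcx5/6 against WT SAM (9.98%), 5 in SAM against leaf of either genotype (52% in WT and 52.4% in tcx5/6) and 4 in the tissue interaction (9.78%). The leaf genes and OSD1 were thus the ones with large differences between tcx5/6 and WT.

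The balance of the activators was summarised per library as the mean log2 level of CCS52A1 and CCS52A2 minus that of CCS52B, CDC20.1 and CDC20.2, relative to WT of the same tissue. It was 0.50 and 0.76 in tcx5/6 ddm1 seedlings, -0.02 and -0.11 in tcx5/6 seedlings and 1.14 and 0.85 in ddm1 seedlings, against -0.04 and 0.04 in WT seedlings. The balance was thus above WT in both genotypes with ddm1 in their label, while tcx5/6 seedlings stayed within 0.11 of the WT mean. DDM1 transcript in tcx5/6 ddm1 libraries was near its WT level and below that of tcx5/6 libraries (log2 -1.71). The part of DDM1 in the balance was not tested, and other differences between libraries also go with the ddm1 label. In tcx5/6 SAM the balance was -0.21 and -0.17, against 0.04 and -0.04 in WT SAM. In tcx5/6 leaf it was -1.85 and -1.84, against -0.50 and 0.50 in WT leaf, so both mutant libraries lay on the mitotic side of the WT spread. Between the tissues the balance in WT SAM was lower by far, with a difference of -8.13 from WT leaf (combined SD 0.71). No test was made of the balance, a score over chosen genes.

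**Figure D4:**
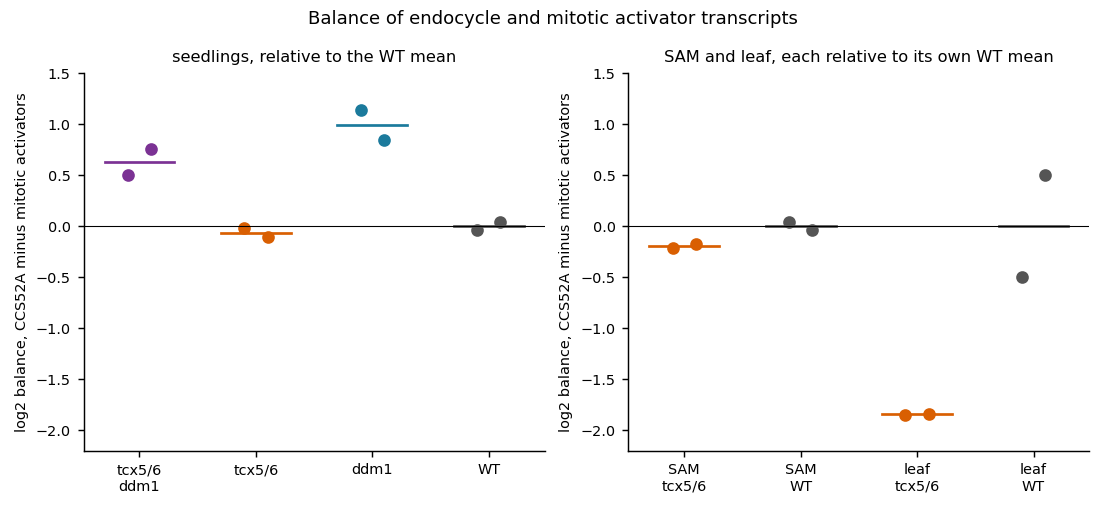
Log2 balance of endocycle (CCS52A1, CCS52A2) over mitotic (CCS52B, CDC20.1, CDC20.2) activators per library (points) relative to the WT mean of the same tissue, with group means (bars). Both ddm1 seedlings lie above WT, at 1.14 and 0.85, and both tcx5/6 leaf libraries below it, at -1.85 and -1.84.

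The ratio per kb of exon was also taken within each pair of paralogs, and it does not say which member differed. OSD1 over UVI4 was 3.88 and 2.74 in tcx5/6 ddm1 seedlings, 2.54 and 3.13 in tcx5/6 seedlings and 2.15 and 3.53 in ddm1 seedlings, against 1.68 and 1.47 in WT seedlings. It was 2.53 and 3.19 in tcx5/6 SAM, against 1.72 and 1.51 in WT SAM, so the mutant libraries lay above WT in seedlings and SAM. By the tests above, OSD1 was called higher in tcx5/6 seedlings with UVI4 not called, and UVI4 was called lower in ddm1 seedlings with OSD1 not called. In leaf it was 0.912 and 1.44 in tcx5/6, against 0.541 and 0.207 in WT, where both genes were low. CCS52A1 over CCS52A2 was 3.55 and 3.61 in tcx5/6 ddm1 seedlings, above the other 6 seedling libraries at 1.54 to 2.51. It was 0.706 and 0.554 in tcx5/6 SAM, against 0.952 and 0.84 in WT SAM, the groups in which CCS52A2 was the more abundant of the pair. CDC20.1 over CDC20.2 kept between 1.94 and 2.71 in 15 of 16 libraries and was 5.38 in WT leaf replicate 2, where CDC20.2 read 2.271.

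The other CDC20 genes were near absent. CDC20.3 was listed at 0 in all 16 libraries, and CDC20.4 and CDC20.5 did not exceed 5.558. CDC20.4 was called higher in tcx5/6 ddm1 than in ddm1 seedlings, at 2.557 and 5.558 in tcx5/6 ddm1 and 0 in both ddm1 libraries. The APC/C regulator of meiosis TDM1 read 19.86 and 17.27 in tcx5/6 SAM and 31.89 and 12.82 in WT SAM, and stayed at or below 1.055 in leaf (log2 4.29 in tcx5/6 and 3.89 in WT for SAM over leaf, adjusted p = 0.00023 and 0.00041). It did not pass the test between tcx5/6 and WT in any tissue.

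Among the 13 genes for core subunits of the APC/C, 7 rose and 0 fell in tcx5/6 seedlings, 9 rose and 0 fell in tcx5/6 SAM, and 7 rose and 1 fell in tcx5/6 leaf. Over all genes, 7.26% were called higher in tcx5/6 seedlings, 15.6% in SAM and 21.3% in leaf, and the counts of the lists below stand beside the same shares. Among the subunits that rose were CDC27a, APC6 and APC8, which form the arm that binds activators. CDC27a read 722.6 and 853.7 in tcx5/6 seedlings, against 166.4 and 174.7 in WT seedlings (log2 2.20, adjusted p = 6.3e-05). Its change was 2.16 in SAM and 2.24 in leaf. APC6 changed by 1.44 in seedlings, 1.48 in SAM and 2.39 in leaf, and APC8 by 1.46, 1.44 and 1.86 (adjusted p at most 0.00015 for the 3 genes in these comparisons). The median over the 13 was 0.41 in seedlings, 0.47 in SAM and 0.32 in leaf, beside 0.00 over all genes. In ddm1 seedlings 9 of 13 fell, beside 23.3% of all genes, and 2 rose, at a median of -0.66. The smallest p-values were those of APC2 (-1.08), CDC27a (-1.03) and CDC27b (-0.78), and the lowest change was that of APC13 (-2.00), named after its value was seen. In tcx5/6 ddm1 against ddm1 seedlings 11 of 13 rose and 0 fell, beside 17.7% of all genes called higher, with CDC27a at 2.86.

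The spindle checkpoint, which holds CDC20 inactive until chromosomes are attached, had 4 of 6 genes higher and 0 lower in tcx5/6 seedlings, 4 and 0 in tcx5/6 SAM, and 5 and 0 in tcx5/6 leaf. BUB3.2 read 760.1 and 685.5 in tcx5/6 leaf, against 10.56 and 4.497 in WT leaf (log2 6.50, adjusted p = 1.7e-05). Its change was 2.37 in seedlings and 2.31 in SAM. The CDC20-binding protein gene MAD2 read 100.3 and 90.42 in tcx5/6 leaf, against 6.366 and 4.418 in WT leaf (log2 3.93, adjusted p = 1.1e-05). The checkpoint kinase gene MPS1 rose by 1.54 in seedlings, 1.72 in SAM and 2.25 in leaf. All 6 fell in ddm1 seedlings, by -0.51 to -1.06, beside 23.3% of all genes called lower.

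The cyclins that the APC/C destroys are of the A and B types. Of 9 A-type cyclin genes 6 rose in tcx5/6 seedlings, 7 in tcx5/6 SAM and 8 in tcx5/6 leaf, and none was called lower. CYCA2;2 rose by 1.53 in seedlings, 1.55 in SAM and 2.29 in leaf, and CYCA2;4 by 1.31 in seedlings and 3.78 in leaf. Of 8 B-type cyclin genes 0 were called by limma-trend in tcx5/6 seedlings, with changes of 0.25 to 0.69 and an unadjusted p under 0.05 for 6. In tcx5/6 SAM 1 was called, CYCB1;2 (log2 0.60, adjusted p = 0.025), with a list range of 0.52 to 0.82, so that all 8 estimates were positive. Standard errors in SAM are shared with the leaf libraries, as for the members, and no fit on SAM alone is given for these lists. In tcx5/6 leaf 6 of 8 rose, led by CYCB1;1 at 52.64 and 88.3 in tcx5/6 leaf, against 3.149 and 0.03471 in WT leaf (log2 5.06, adjusted p = 0.00063). In ddm1 seedlings 8 of 8 B-type and 6 of 9 A-type cyclin genes fell, among them CYCB1;3 (-1.28), CYCB2;2 (-1.12) and CYCA3;1 (-1.64), beside 23.3% of all genes called lower. The lowest B-type change was that of CYCB2;1 (-1.62), named after its value was seen. In tcx5/6 ddm1 against ddm1 seedlings 7 of 8 B-type and 7 of 9 A-type genes rose, beside 17.7% of all genes called higher. Securin and separase, the pair through which the APC/C frees sister chromatids, are the genes PANS1 and ESP. ESP rose in tcx5/6 seedlings (log2 1.75), SAM (1.46) and leaf (1.47), and PANS1 in SAM (0.59) and leaf (0.61).

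The mitotic kinase gene CDKB1;1 read 1276 and 1179 in tcx5/6 leaf, against 6.516 and 15.1 in WT leaf (log2 6.80, adjusted p = 1.3e-05). Of the 5 CDK genes 4 rose in tcx5/6 seedlings, 3 in tcx5/6 SAM and 4 in tcx5/6 leaf, and 0 fell. Of 15 tested endocycle regulators (16 listed), 6 rose and 0 fell in tcx5/6 seedlings, 7 rose and 1 fell in tcx5/6 SAM, and 9 rose and 1 fell in tcx5/6 leaf. The members that rose include E2FC (1.72 in seedlings, 1.49 in SAM and 1.96 in leaf), a repressive E2F factor, and E2FA (1.55 in seedlings and 1.56 in SAM), an activating one. DEL1, a repressor of CCS52A2 and of endoreplication in Arabidopsis, rose by 2.52 in leaf, where CCS52A2 did not pass the test. Of the 5 MYB3R factors, which bind the MSA element, 3 rose in tcx5/6 seedlings, 3 in SAM and 2 in leaf, where 21.3% of all genes were called higher. MYB3R4 rose by 1.26 in seedlings and 5.93 in leaf, and MYB3R1 by 0.64 in seedlings and 0.58 in SAM.

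**Figure D5:**
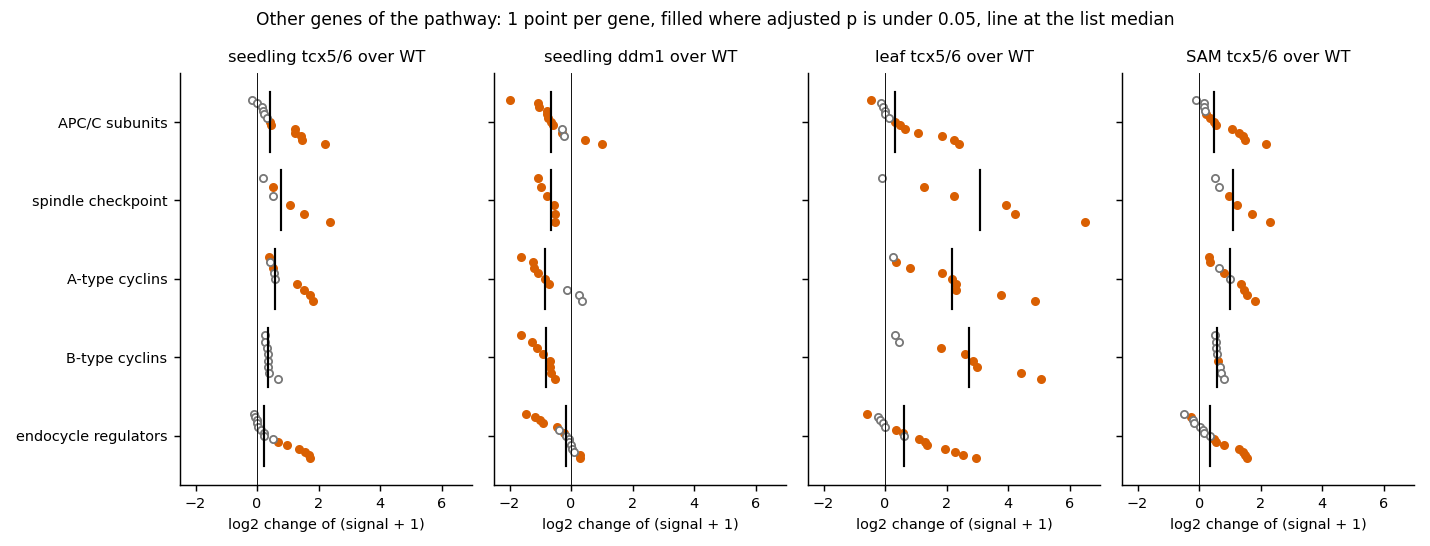
Change of every gene of 5 lists around the APC/C in 4 comparisons (points, filled where adjusted p was under 0.05; vertical lines at list medians). B-type cyclins cluster at 0.25 to 0.69 in tcx5/6 seedlings with no filled point and spread to 5.06 in leaf, while all 8 lie left of 0 in ddm1.

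Across the 8 groups, the genes most like each member were ranked by Pearson r of group mean log2(signal + 1), centred within each table, over 18925 genes. This is a description over 8 groups that share libraries, and the gap between SAM and leaf makes up most of the range of the mitotic genes. CCS52B was closest to the spindle protein gene TPX2 (r = 0.9994), and TPX2 was among the 3 closest to CDC20.2 (r = 0.9996). CDC20.1 and CDC20.2 shared RLK902, a receptor-like kinase gene, as the closest (r = 0.9998 and 0.9999). UVI4 had the histone H2A gene HTA10 at r = 0.9975 behind AT5G23910 at 0.9978, and OSD1 had AT4G11550 first at 0.9983. The endocycle activators had weaker neighbours: AT3G11580 (r = 0.9895) and the nitrate transporter gene NRT1.8 (0.9869) for CCS52A1, and AT3G59800 (0.9752) and TAF5 (0.9725) for CCS52A2.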

How the data were processed

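The authors deposited 2 tables of signal, for 8 seedling libraries and for 8 leaf and SAM libraries, holding reads per gene after an adjustment for library size that left fractional values. The submitters' processing notes name HISAT2, edgeR and TAIR10. Not given in the sources used here: their versions, the counter, its annotation and its use of strand. Tissue was taken from the titles, since the tissue field reads seedlings throughout. The tables were normalized separately and tested separately.

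Values under 1e-06 count as 0 here. The limma-trend method (limma 3.58.1, R 4.3.3) was run per table on log2(signal + 1), for genes reaching 1 signal in at least 2 libraries, with a mean for each group and the 8 libraries fitted together. P-values were adjusted over all 25016 (seedling) or 24429 (leaf and SAM) genes tested by the Benjamini-Hochberg method, and genes with an adjusted p under 0.05 were called. The pseudocount understates changes of low genes. Simulated data were fitted as well, but no outcome is given here. Nothing about the reported leaf, SAM or interaction calls is concluded from that simulation. Errors are SE of the fit or SD of 2 libraries. Windows, loci and identities came from RefSeq TAIR10.1 with Biopython 1.88, and figures from matplotlib 3.10.9.

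The members and gene lists were chosen with earlier results of these data known. All 7 members are named in each comparison. Up to 3 called genes per list with the smallest p were named, and the 3 nearest genes per member were ranked. TCX5, TCX6 and DDM1 served to check the labels, and CCA1 was added after the data were seen. Alternatives were median-of-ratios rescaling, no filter, a filter at 20 signal, 0.1 as the pseudocount, a least absolute log2 change of 1, the replicate block, the compared groups alone and each library left out. Leaving libraries out of the balance was chosen after seeing the data.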

Additional observations from a re-analysis of the deposited data

Results flagged for a closer look

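The effect of tcx5/6 differed between SAM and leaf for 4 genes by the interaction term of the limma-trend fit with Benjamini-Hochberg adjustment, SAM minus leaf on the log2 scale. The interaction was -2.63 for OSD1, -1.92 for UVI4, -1.72 for CDC20.2 and -1.29 for CDC20.1. On this scale the differences in leaf were the larger ones in each case. Both tcx5/6 libraries lay above both WT libraries for these genes in leaf and in SAM, as for 34.3% of all genes in leaf and 34.2% in SAM. WT leaf values of these genes were 2.271 to 16.99 signal, near the low end of the table. The calls of OSD1 and CDC20.2 were each lost with some single libraries left out, and that of CDC20.2 also with a pseudocount of 0.1, as given with the interaction above. No test of any cause was made.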

How the results depend on the processing

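With a minimum absolute log2 change of 1, the genes called fell to 0 in ddm1 against WT, 1 in tcx5/6 ddm1 against WT, 2 in tcx5/6 ddm1 against ddm1, 0 in tcx5/6 ddm1 against tcx5/6 and 1 in SAM tcx5/6 against WT. Fitting the compared groups alone called 4 genes in seedling tcx5/6 against WT, 2 in tcx5/6 ddm1 against ddm1 and 6 in SAM tcx5/6 against WT. A pseudocount of 0.1 called 1 in SAM, with OSD1 at an adjusted p of 0.083, and took CDC20.2 in the tissue interaction to 0.056. Leaving out 1 library gave 2 to 4 genes in tcx5/6 ddm1 against ddm1, 0 to 1 in the seedling interaction, 0 in SAM and 2 to 5 in the tissue interaction; elsewhere counts stayed within 1.5 times. The cause of these shifts was not tested.

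Signs turned only for changes not called. Under median-of-ratios rescaling CCS52A2 in ddm1 against WT became -0.01 and OSD1 in the seedling interaction 0.01. With 1 library left out, ddm1 against WT ranged from -0.24 to 0.28 for CCS52A2 and -0.38 to 0.16 for OSD1, and UVI4 in tcx5/6 ddm1 against WT from -0.04 to 0.39. In the seedling interaction OSD1 ranged from -0.30 to 0.24, CCS52B from -0.00 to 0.34 and CDC20.1 from -0.21 to 0.01. In leaf CCS52A2 ranged from -0.29 to 0.08. CCS52A1 ranged from -0.15 to 0.06 in SAM tcx5/6 against WT and from -0.11 to 0.09 in WT SAM against WT leaf.

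Same-numbered replicates showed little shared deviation (r from -0.03 to 0.09). This check cannot tell whether same-numbered libraries were grown or handled together. With the replicate block UVI4 in SAM tcx5/6 against WT (adjusted p = 0.046) and CCS52A1 in tcx5/6 SAM against tcx5/6 leaf (0.03) were called, the other 75 of 77 results kept their side, and the seedling tcx5/6 count stayed at 1. Dropping the filter changed 0 of 77. DESeq2 was not run, since the values are not counts. The balance of tcx5/6 against WT leaf was -1.99 with a pseudocount of 0.1 and ran from -2.34 to -1.34 with 1 library left out, a shift that 2 libraries per group keep under 1 SD by construction. Rescaling and the gene filter do not bear on the balance. With 2 libraries per group and unknown depth, values near 1 signal in leaf carry little precision.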
